A study of Homo sapiens with 4 samples.

Results

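Peaks of N4-acetylcytidine (ac4C) that run across an exon junction were examined in FaDu, a human cell line from a squamous cell carcinoma of the hypopharynx. A peak was taken as junction-spanning where its row in a peak list held 2 or more blocks, that is, exonic stretches separated by a gap in the genome. In shNC cells 1583 of 6403 peaks were of this kind (24.7%, 95% Wilson interval 23.7 to 25.8), in 1398 genes, and in shNAT10 cells 1534 of 6417 (23.9%, 22.9 to 24.96), in 1373 genes. The remaining 4820 and 4883 peaks of the lists, each a continuous stretch of the genome, are called single-block peaks and serve as the comparison.

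The cells carried either a control short hairpin RNA (shNC) or one against NAT10 (shNAT10), and the labels name no other treatment. Fragmented total RNA was pulled down with an antibody against ac4C (acRIP-seq), giving 1 IP and 1 input library for each condition, 4 libraries in all. There are no replicates, so no value below has an error between cultures, and with peaks but no reads in the lists the sequencing depth is unknown. Each condition had its own peak list, and the fold enrichment of IP over input and the p-value of a peak are the authors' values for that list. The lists were normalized separately, so a fold enrichment set across them compares entries of separate tables and not measured ac4C amounts. All intervals are 95% intervals that cover the sampling of peaks only. Gene symbols came from a deposited table of the peaks that the authors called different between the conditions, which paired 2483 of 6723 gene identifiers with a symbol, so 51.7% of the junction-spanning shNC peaks and 48.8% of the shNAT10 peaks can be named. The epithelial keratins KRT7, KRT13, KRT18 and KRT19 had named peaks, but they were not among the 8 squamous and epithelial markers looked up. Of those 8 only DSP had a peak, which was single-block and in shNC only, and for the others no symbol was paired with a row. Among the markers of other cell types, VIM, PTPRC and PECAM1 had no peak with a symbol in either list. The collagen gene COL1A1 had 2 peaks in shNC, 1 of them junction-spanning, and 0 in shNAT10.

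NAT10 is the known writer of ac4C on mRNA, ribosomal RNA and tRNA, and acetylated cytidines in mRNA have been linked to its stability and translation. Introns are removed from a pre-mRNA during splicing, and the exons on either side are joined, so a fragment of mature mRNA can hold the end of an exon directly followed by the start of the next. Reads from such a fragment align to the genome in pieces, and a peak built along the transcript then appears as several blocks. Nearly all introns begin with GT and end with AG in the DNA of the coding strand.

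The letters at the block edges were read where a RefSeq promoter window of GRCh38.p14 reached them, leaving out gaps under 30 nt. Of 2140 junctions in shNC and 2076 in shNAT10, 16 and 15 had letters just after the upstream block, and all of them read GT, which was the reading of 4.62% of all neighbouring pairs of bases in the windows. AG stood just before the downstream block in 15 of 19 junctions in shNC (78.9%) and in 13 of 17 in shNAT10 (76.5%), against 7.26% of all pairs. How the block edges were set is not given in the sources used here. Edges taken from annotated exons would carry these letters whatever the reads, so the letters cannot show that reads crossed a junction. The examples below show 30 bases around an edge on the strand of the gene, with the first or last 2 bases of the gap in capitals. CALB2 (calretinin, a calcium-binding protein) and the ribosomal protein genes RPL27 and RPS28 have these junctions in peaks of both lists, except the upstream edge of CALB2, which was in the shNC list only, and KRT7 is shown as a gap that did not end in AG.
CALB2, end of a gap, chr16:71383955-71383984, plus strand: ttctgtccccaacAGctacggatgtttgac
CALB2, start of the next gap, chr16:71384011-71384040, plus strand: ctcagagatgtcccgGTaagcacctcaccc
RPL27, start of a gap, chr17:43000088-43000117, plus strand: cctaatgcccacaagGTgagcatttcaaga
RPS28, start of a gap, chr19:8321555-8321584, plus strand: atcaagctggccaggGTgaggtgggggccc
KRT7, end of a gap, chr12:52247643-52247672, plus strand: tccttccttagtcCTggctggagccccatt

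Most junction-spanning peaks crossed a single junction. In shNC 1121 peaks had 2 blocks, 358 had 3 and 104 had 4 or more, and in shNAT10 these numbers were 1082, 346 and 106. The gaps had a median of 599.5 nt in shNC and 606 nt in shNAT10, with middle ranges of 189 to 1787 nt and 192 to 1878 nt. Gaps over 10000 nt made up 3.43% and 3.16% of them, and 16 shNC and 11 shNAT10 gaps were shorter than 30 nt. The smallest block of a peak was short, with a median of 51 nt in shNC and 49 nt in shNAT10. It was under 20 nt in 296 shNC peaks (18.7%) and 293 shNAT10 peaks (19.1%), and a single base in 14 and 21 of them. The junction lay towards the 5′ side of the peak. Among 2-block peaks the median share of the exonic length 5′ of the junction was 36.5% in shNC and 35.4% in shNAT10, and the junction lay in the 20% of the exonic length nearest the 3′ end in 9.10% and 8.23%.

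Among genes with a symbol the longest chains of blocks in shNC were found in TNNT1, CALB2 and ATP5C1. TNNT1, the slow skeletal troponin T gene, had a peak of 10 blocks and 982 exonic nt in shNC (chr19:55132853-55141961, GRCh38, minus strand) at a fold enrichment of 55.5, and one of 8 blocks and 685 nt in shNAT10 at 124. CALB2 had 9 blocks and 479 nt in shNC at a fold enrichment of 170 and 6 blocks and 359 nt in shNAT10 at 11. ATP5C1, which encodes the gamma subunit of mitochondrial ATP synthase, had 8 blocks at 35.2 in shNC and 7 blocks at 18.6 in shNAT10. EIF5B, a factor that joins ribosomal subunits, had 7 blocks in both lists, with fold enrichments of 21.9 and 15.8. The readthrough gene NME1-NME2 also had 7 blocks in both, at 39.7 and 19.2, and its peak had the same ends in both lists (chr17:51155742-51171744, plus strand). The longest total gap of a named gene was 57214 nt, in the 4-block peak of AP005263.1 in both lists (12.3 and 16.9), followed by 53885 nt in PITPNC1, a phospholipid transfer protein gene, whose shNC peak at 18.0 overlapped no shNAT10 peak. Rows of overlapping genes repeat such peaks, and 180 shNC members (11.4%) overlapped another row of their own list.

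**Figure D1:**
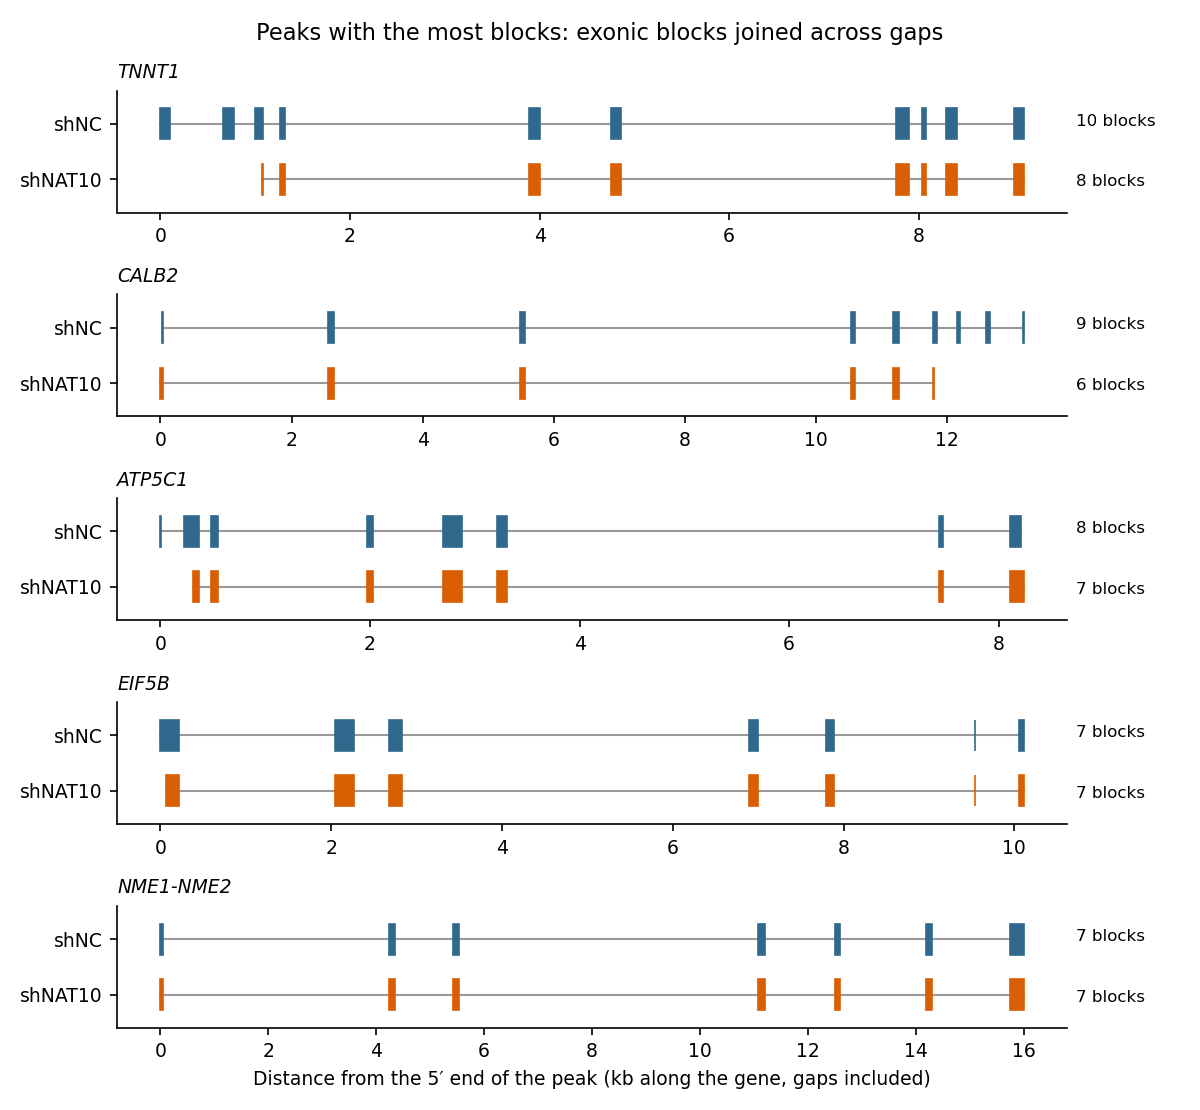
Exonic blocks (boxes) and gaps (lines) of the peaks with the most blocks in 5 genes with a symbol, for the shNC list (blue) and the shNAT10 list (orange), plotted in kb along the gene from the 5′ end of the peak. TNNT1 has 10 blocks in shNC and 8 in shNAT10, CALB2 has 9 and 6, ATP5C1 has 8 and 7, and EIF5B and NME1-NME2 have 7 in both.

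Junction-spanning peaks differed from single-block peaks in p-value and length more than in fold enrichment. The median fold enrichment was 13.1 against 12.2 in shNC and 12.05 against 12.4 in shNAT10. A junction-spanning peak had the higher fold enrichment in 51.4% of pairs with a single-block peak in shNC (DeLong interval 49.6 to 53.1) and in 49.8% in shNAT10 (48.1 to 51.5), and both intervals hold 50%. With only the strongest peak of each gene these values were 54.4% (52.5 to 56.3) and 52.7% (50.7 to 54.6), both above 50%. With blocks of at least 20 nt the shNC value was 52.5% (50.7 to 54.4), while the shNAT10 interval held 50% (51.3%, 49.4 to 53.2). With an FDR of at most 0.05 the values were 50.2% (48.5 to 51.9) in shNC and 49.6% (47.8 to 51.4) in shNAT10, and both intervals held 50%. The median log10 p was -19.6 against -8.49 in shNC and -19.55 against -7.92 in shNAT10, and the junction-spanning peak had the smaller p-value in 64.3% (62.8 to 65.9) and 63.3% (61.6 to 65.0) of pairs. Their median exonic length was 241 nt against 190 nt in shNC and 240 nt against 181 nt in shNAT10. Among peaks of 150 to 300 nt the fold enrichment of the junction-spanning ones was the lower, at a median of 9.90 against 11.1 in shNC and 9.30 against 11.8 in shNAT10, while their p-values remained the smaller.

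Genes with exactly 1 peak of each kind allowed a comparison within a gene, and there were 276 in shNC and 298 in shNAT10. The junction-spanning peak had the higher fold enrichment in 128 of them in shNC (46.4%, 40.6 to 52.3), with 2 ties, and in 121 in shNAT10 (40.6%, 35.2 to 46.3), with 5 ties. It had the smaller p-value in 53.3% (47.4 to 59.1) and 54.4% (48.7 to 59.9). Of these intervals, that of the fold enrichment in shNAT10 lay below 50% and the others included it.

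The highest fold enrichment of shNC was 342, in a gene without a symbol (ENSG00000164825, 210 in shNAT10). Among named members the highest were 239 for PABPC1, the poly(A)-binding protein, 227 for RPS3A, a small-subunit ribosomal protein, and 224 for HSPB1, a small heat-shock protein, all in shNC. Their partners in shNAT10 stood at 67.4, 59.2 and 65.0. In shNAT10 the highest named member was MZT2B, a gamma-tubulin complex protein, at 366, with 67.4 in shNC. Among named genes it was followed by SAFB, a nuclear scaffold protein, at 194, which overlapped no shNC peak, and by C17orf49 at 181 and KRT7 at 179, whose shNC partners stood at 97.4 and 95.2. LAMA5, a laminin chain, had 191 in shNC with a block of only 3 nt beyond the junction, and 33.8 in shNAT10. HSPB1 crossed a gap of 118 nt and MZT2B one of 2206 nt.

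The question of whether these peaks occurred in both conditions was addressed by asking whether any exonic base was shared, on the same strand, with a peak of the other list. Of all peaks, 51.7% of the shNC list and 51.5% of the shNAT10 list overlapped the other list. For junction-spanning peaks the share was 970 of 1583 in shNC (61.3%, 58.9 to 63.6) and 940 of 1534 in shNAT10 (61.3%, 58.8 to 63.7), and for single-block peaks it was 48.5% and 48.4%. The difference was 12.8 percentage points in both lists (Newcombe interval 9.96 to 15.5 in shNC and 10.0 to 15.6 in shNAT10). The share was 57.2% for 2 blocks, 66.8% for 3 and 86.5% for 4 or more in shNC, and 57.3%, 66.2% and 85.8% in shNAT10. Peaks with more blocks were also longer and had smaller p-values. Their median log10 p was -15.4, -27.4 and -101.65 in shNC and -15.6, -26.6 and -69.6 in shNAT10. The median exonic length was 239, 298 and 464 nt in shNC. The share by number of blocks was not separated from length or p-value.

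The difference between junction-spanning and single-block peaks moved with the p-value of the peaks. The quartile of a list with the smallest p-values held 39.9% of the junction-spanning and 20.1% of the single-block peaks in shNC, and 41.1% and 19.9% in shNAT10. Within quartiles, the difference in the overlapping share lay between -4.52 and 3.06 percentage points, and the interval excluded 0 in the top quartile of shNAT10 alone, where 94.1% of junction-spanning and 91.1% of single-block peaks overlapped the other list (3.06 points, 0.385 to 5.58). Among peaks of 150 to 300 nt the difference was 3.68 points in shNC (0.0927 to 7.31) and 3.64 points in shNAT10 (0.0366 to 7.27). Of genes with 1 peak of each kind, 49 in shNC had only the junction-spanning peak overlapped and 64 only the single-block peak, and in shNAT10 these numbers were 65 and 74.

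**Figure D2:**
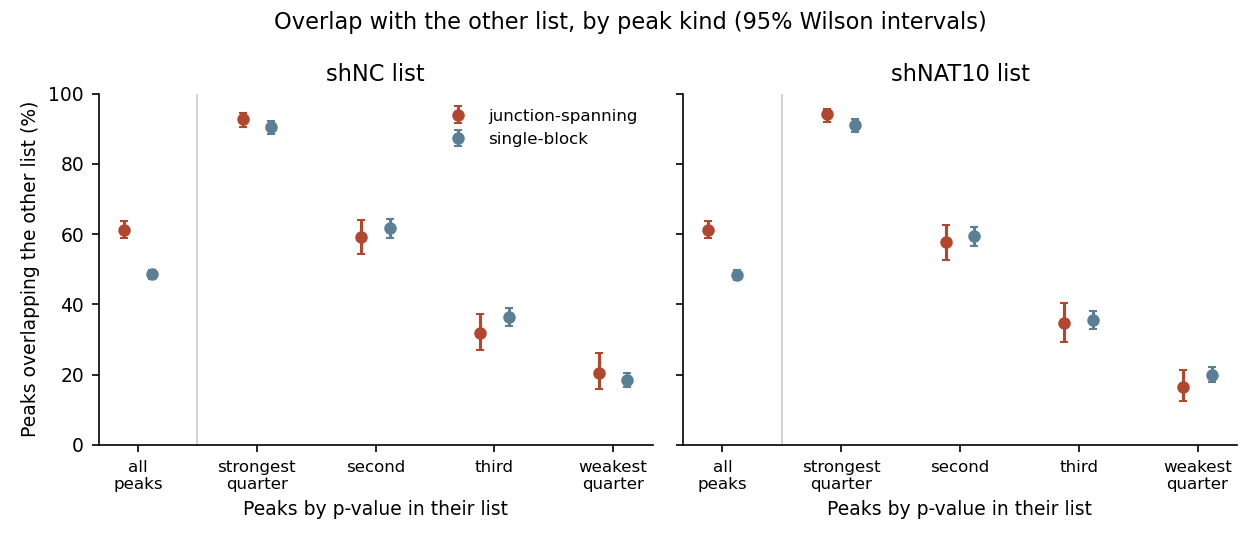
Share of peaks that overlap a peak of the other list, in percent, for junction-spanning (red) and single-block peaks (blue), over all peaks and by quartile of the list from the smallest to the largest p-values, with 95% Wilson intervals. The kinds differ by 12.8 points over all peaks, while within quartiles their points differ by between -4.52 and 3.06 points.

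Overlapping partners mostly crossed a junction as well. The partner was junction-spanning for 834 of the 970 overlapping shNC peaks (86.0%) and for 825 of the 940 shNAT10 peaks (87.8%). A total of 1077 junctions, matched by the exact ends of the gap, occurred in both lists, which was 49.95% of 2156 in shNC (47.8 to 52.1) and 51.6% of 2087 in shNAT10 (49.5 to 53.7). As the setting of block edges is not given, a match of exact ends does not show reads across the gap. Identical blocks throughout were rarer, in 96 peaks. Among the members without a partner, the gene had another peak in the other list in 46.5% of 613 shNC cases and 47.0% of 594 shNAT10 cases. Neither this share nor the kind of partner was counted for single-block peaks. These values therefore cannot be called particular to junction-spanning peaks. Of the shared junctions with a named gene, ranked by the lower of the values in the lists, the first was a gap of 4100 nt in CALB2, with fold enrichments of 126 in shNC and 156 in shNAT10. KRT19, a keratin of simple epithelia, followed with 159 and 118, SNCG (gamma-synuclein) with 97.4 and 158, C17orf49 with 97.4 and 181, and KRT7 with 95.2 and 179. In KRT13, a keratin of mucosal squamous epithelium, all 5 junctions of its 6-block peak were in both lists, at 160 and 90.2.

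For peaks that were each other's best overlap, the fold enrichments of the lists were set side by side. Of 3127 such pairs of any kind, the value was at least 2 times lower in shNAT10 in 24.6% and at least 2 times higher in 21.8%. Among the 772 pairs in which both peaks crossed a junction, it was lower in 181 (23.4%, 20.6 to 26.6) and higher in 152 (19.7%, 17.0 to 22.6), and 56.9% stayed within 2 times. Against pairs of single-block peaks these shares differed by -1.16 points (-4.58 to 2.43) and -2.64 points (-5.86 to 0.78), and both intervals include 0. The median log2 ratio of shNAT10 to shNC was -0.12 in junction-spanning pairs and -0.06 in single-block pairs. A further 137 pairs crossed a junction in shNC only and 113 in shNAT10 only.

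Individual pairs ranged from -4.39 to 4.74 on the log2 scale. At the lower end, FXYD5, a regulator of the sodium pump and of cell adhesion, had a fold enrichment of 173 in shNC and 8.28 in shNAT10 in 2-block peaks that differed by 30 nt at 1 end. PFDN4, a prefoldin subunit, had 71.5 and 3.51, CCT2, a subunit of the cytosolic chaperonin, 73.9 and 5.66, and PSMB3, a proteasome subunit, 60.1 and 4.77. In shNAT10 the peaks of PFDN4 and CCT2 had log10 p of only -9.84 and -9.36. The PFDN4 peak held 450 exonic nt in shNC and 210 in shNAT10. At the other end stood PFDN5, another prefoldin subunit, with 4.14 in shNC and 111 in shNAT10, and RPL11, a large-subunit ribosomal protein, with 5.50 and 147. EEF1A1, which brings tRNA to the ribosome, had 5.10 and 70.6, and EIF3G, an initiation factor subunit, 9.45 and 76.9 over 4 blocks. The shNC peak of PFDN5 had a log10 p of only -6.96, and the EEF1A1 peak held 419 exonic nt in shNC and 868 in shNAT10. Of 268 pairs with log10 p of -100 or below in both lists, 75.7% stayed within 2 times, against 56.9% of all 772. These 268 pairs still ranged from -3.66 to 4.74. CCT2, EEF1A1 and EIF3G had no other junction-spanning peak in either list. In RPL11 and PSMB3 the other junction-spanning peaks differed less. RPL11 had another at 12.6 in shNC and 10.2 in shNAT10, and PSMB3 another at 30.5 and 23.2. All these differences are between 1 library pair per condition, and their spread between cultures is unknown.

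**Figure D3:**
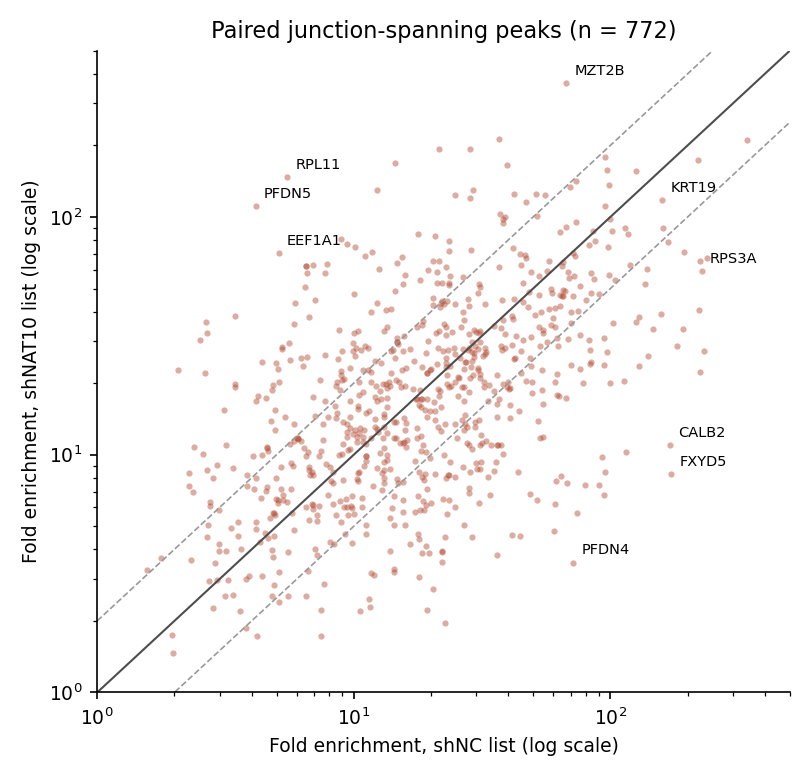
Fold enrichment in the shNAT10 list against that in the shNC list for 772 pairs of junction-spanning peaks, both on log axes, with the line of equality and dashed lines at 2 times higher and lower. Of the pairs, 56.9% lie between the dashed lines, and named points include the more changed RPL11 pair (5.50 and 147) and FXYD5 (173 and 8.28).

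Pairs in a gene did not always move together. Of 47 genes with 2 or more junction-spanning pairs, 18 had no pair past 2 times, 25 had such pairs in 1 direction and 4 in both. B4GALNT4, a glycosyltransferase gene, had 60.8 in shNC and 6.20 in shNAT10 in one peak and 14.8 and 64.2 in another. DMKN, which encodes the epidermal protein dermokine, had 79.9 and 7.45 in one and 10.0 and 47.5 in another. HOMER3, a scaffold protein gene, had 15.5 and 6.44 in one and 20.3 and 42.5 in another. In CALB2 the 9-block peak stood at 170 and 11, while its 2-block peak further downstream stood at 126 and 156. SNCG had 3 junction-spanning peaks in both lists, with values of 67.7 and 7.61, 47.0 and 20.5, and 97.4 and 158 from the 5′ to the 3′ end.

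Among all peaks with a symbol, 28.5% in shNC and 26.8% in shNAT10 spanned a junction. In genes of ribosomal proteins the share was higher, at 70 of 153 peaks in shNC (45.8%, 38.1 to 53.7) and 68 of 152 in shNAT10 (44.7%, 37.1 to 52.7), spread over 48 and 49 genes. Of these members 94.3% and 95.6% overlapped the other list, against 62.6% and 67.0% of all named junction-spanning peaks, but close to the 92.7% and 94.1% of all junction-spanning peaks in the top quartile by p-value. Their median fold enrichment was 12.5 and 13.95, against 13.85 and 12.7 for all named members. They ranged from RPL32 at 1.37 to RPS3A at 227 in shNC and from RPL13A at 2.28 to RPL11 at 147 in shNAT10. RPL22L1, a paralogue of the ribosomal protein RPL22, had a 3-block peak with the same ends in both lists at 194 and 70.9. RPS9 had 3 junction-spanning peaks in shNC at 83.3, 20.5 and 2.39. In the top quartile by p-value the ribosomal share was 50.4% in shNC and 48.1% in shNAT10, against 38.4% and 38.2% of all peaks with a symbol in that quartile.

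Translation factors had a junction in 15 of 43 peaks in shNC (34.9%, 22.4 to 49.8) and in 19 of 40 in shNAT10 (47.5%, 32.9 to 62.5). EIF1, which helps select the start codon, had the same 2 blocks in both lists at 29.1 and 130, EIF6, which keeps ribosomal subunits apart, 52.1 and 13.8, and EIF4A1, an RNA helicase of initiation, 26.1 and 34.4. Proteasome subunits had 14 of 29 (48.3%) and 12 of 27 (44.4%), among them PSMA2 at 15.9 and 57.2 and PSMC4 at 49.6 and 18.1. Chaperones had 7 of 18 and 7 of 14, and HSPA8, the constitutive heat-shock cognate, stood at 24.7 and 124. Splicing factors had 14 of 49 (28.6%) and 17 of 52 (32.7%), including SNRPE, a core protein of the spliceosomal snRNPs, with 4 blocks at 67.0 and 90.6. The intervals of these smaller lists were wide. The share of all named peaks lay inside that of splicing factors in both conditions, and in shNC also inside those of translation factors and of chaperones (20.3 to 61.4).

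Keratins and adhesion genes had 10 of 25 junction-spanning peaks in shNC (40.0%) and 8 of 25 in shNAT10 (32.0%), with median fold enrichments of 91.25 and 73.9, the highest of the lists with 5 or more members in their condition. These peaks came from only 6 genes in each list, and the high values were those of KRT7, KRT13 and KRT19. In shNC KRT18 stood at 7.19 and the adhesion genes CDH24 and PKP3 at 7.6 and 13.1. In shNAT10 KRT10 stood at 24.9, KRT18 at 5.26 and PKP3 at 15.1. KRT7, a keratin of glandular and other simple epithelia, had 4 junction-spanning peaks in shNC, and no gene of that list had more. The 5′ peak stood at 72.5 in shNC and 68.8 in shNAT10, and the 3′ peak at 87.3 and 79.0. Of the 2-block peaks between them, one stood at 180 in shNC and overlapped only a single-block shNAT10 peak at 3.55. The other went the opposite way, at 95.2 in shNC and 179 in shNAT10. Glycolytic enzymes had 5 of 12 in both lists, including GAPDH at 12.2 and 19.4 and LDHB, a lactate dehydrogenase subunit, at 20.3 and 45.5 in one peak and 2.99 and 5.84 in another. Actin and tubulin cytoskeleton genes had 4 of 23 and 7 of 21, and matrix and integrin genes 5 of 18 and 3 of 13. Aminoacyl-tRNA synthetases had 1 of 4 in shNC and 0 of 1 in shNAT10, and replication-dependent histones, whose genes lack introns, had no peak with a symbol.

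Zinc finger genes of the ZNF series and the mitochondrial genome lay at the low end. In ZNF genes 2 of 26 peaks in shNC (7.69%, 2.14 to 24.1) and 1 of 16 in shNAT10 (6.25%, 1.11 to 28.3) spanned a junction. Of the shNC peaks, ZNF593 stood at 2.66, and the other, at 193, belonged to ZNF32-AS1, an antisense gene that matched the symbol pattern without encoding a zinc finger. None of the 15 shNC and 17 shNAT10 peaks of mitochondrial genes with a symbol spanned a junction, as the mitochondrial genome has no introns. Of the MAP kinase and dual-specificity phosphatase genes, 2 of 10 peaks in shNC and 2 of 6 in shNAT10 were junction-spanning. MAP2K2, which encodes the kinase MEK2, had a 2-block peak in both lists, at 9.34 over 629 exonic nt (chr19:4090351-4094723, minus strand) and at 6.51 over 330 nt, with log10 p of -597 and -534. The shNAT10 list also held a single-block MAP2K2 peak at 13.5 (chr19:4094723-4094873, log10 p -3.41), which overlapped the end of the shNC peak. The peaks of NAT10, UBE2V1, GLMP and COPS4 were single-block in every list that held them. NAT10 stood at 6.91 in shNC and 12 in shNAT10, which are enrichments over input and not a measure of its mRNA.

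Region classes and motif sites were given only for the 2807 peaks that the authors called different between the conditions, of which 755 spanned a junction (26.9%, 25.3 to 28.6). The coding sequence (CDS) was the class of 363 of these (48.1%, 44.5 to 51.6) and of 181 of the 2052 single-block peaks (8.82%, 7.67 to 10.1), a difference of 39.3 points (35.5 to 43.0). The 3′-UTR was the class of 177 (23.4%) against 1398 (68.1%), a difference of -44.7 points (-48.2 to -40.9). A further 27.2% and 22.4% were classed only as exon. With 2, 3 and 4 or more blocks the CDS share was 46.1%, 51.4% and 54.4%, with overlapping intervals. A peak across several exons can touch more than 1 region, but the table gives it 1 class, at a position that was the middle of its longest block in 621 rows and the middle of the whole span, gap included, in 134. That position lay outside the blocks in 13 rows. Because a member has to cross an exon junction, the class shares also depend on where junctions lie in a transcript. The difference between the kinds is therefore not a measure of where ac4C lies.

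**Figure D4:**
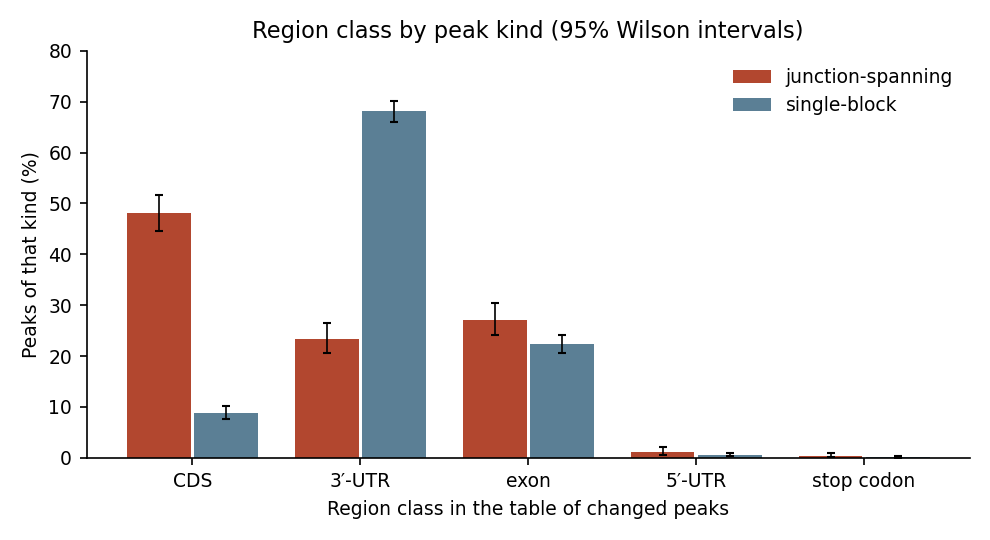
Share of junction-spanning (red, n = 755) and single-block (blue, n = 2052) peaks in each region class, in percent, among peaks the authors called different between the conditions, with 95% Wilson intervals. CDS holds 48.1% and 8.82%, and 3′-UTR 23.4% and 68.1%.

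The table also lists sites of the sequence CXXCXXCXXCXX, in which X is any base, for each peak. At least 1 site was listed in 530 of the 755 junction-spanning peaks (70.2%, 66.8 to 73.4) and in 1180 of the 2052 single-block peaks (57.5%, 55.4 to 59.6), a difference of 12.7 points (8.72 to 16.5). Junction-spanning peaks of this table were longer, with a median of 300 against 240 exonic nt, and within 4 ranges of length the difference was smaller, at 5.28 points (-4.09 to 14.6) up to 180 nt, 9.57 (1.95 to 16.8) up to 270 nt, 8.87 (0.835 to 16.2) up to 390 nt and 5.08 (-1.50 to 11.4) above, while among peaks of 150 to 300 nt it was 12.9 (7.15 to 18.3). The density was 0.582 against 0.506 sites per 100 exonic nt. By class, the share was 68.3% against 69.1% in CDS (difference -0.741 points, -8.74 to 7.68) and 74.6% against 54.3% in the 3′-UTR (20.3 points, 12.9 to 26.7), and per 100 nt the CDS value was the lower in junction-spanning peaks, at 0.589 against 0.704. The most sites were listed in H19, an imprinted non-coding RNA, with 21 in a 3-block peak of 2409 nt, in PTMS (parathymosin) with 19 in 6 blocks, and in SERINC2, a serine incorporator family gene, with 15 in 2 blocks. Of 1525 sites in junction-spanning peaks 17 (1.11%) crossed a junction, and such positions held 0.145 sites per 100 possible starts against 0.624 elsewhere. How the scan treated the junctions is not given in the sources used here. RefSeq windows held letters for 11 listed plus-strand sites of junction-spanning peaks, and 9 had the pattern when read straight along the genome. The sites in CALB2 and RPS21 did not, and both cross a gap when read along the blocks.

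Positions of these sites need care on the minus strand. In junction-spanning peaks of the plus strand, the first base of each of the 770 listed sites lay in a block. On the minus strand 340 of 755 sites (45.0%) lay outside the blocks, in 172 of 253 peaks, while all 755 lay inside when the block layout was turned end for end. Taken as listed, at least 1 site inside a block was found in 58.5% of junction-spanning peaks, a difference from single-block peaks of only 1.04 points (-3.10 to 5.11), and on the minus strand the difference was -11.4 points (-17.5 to -5.15). After moving the minus-strand sites through the turned layout, every listed site lay in its peak and the share was again 70.2%. RefSeq windows held letters for 6 moved minus-strand sites, 2 of them where the move left the listed position as it was, and all 6 had C at positions 1, 4, 7 and 10 (counted from the 5′ end), a pattern found in 1.61% of the stretches of that length in all windows and in 90.3% of the windows at least once on either strand. In EIF3G 8 of 10 listed sites lay outside its 4 blocks and none after the move. The sites below are shown on the strand of the gene, with the 4 cytidines of the pattern in capitals. JPT1, a microtubule-associated protein gene, and AKR1C2, a hydroxysteroid dehydrogenase gene, show moved sites whose listed positions lay elsewhere, and RPS28 shows sites at their listed positions.
JPT1, chr17:75136182-75136193, minus strand, moved: CtgCtgCgcCtg
JPT1, chr17:75136155-75136166, minus strand, moved: CccCggCccCag
JPT1, chr17:75136109-75136120, minus strand, moved: CagCctCgtCtt
AKR1C2, chr10:4995376-4995387, minus strand, moved: CagCtgCagCgt
RPS28, chr19:8321499-8321510, plus strand, as listed: CctCtcCgcCag
RPS28, chr19:8321512-8321523, plus strand, as listed: CcgCcgCcgCgc

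**Figure D5:**
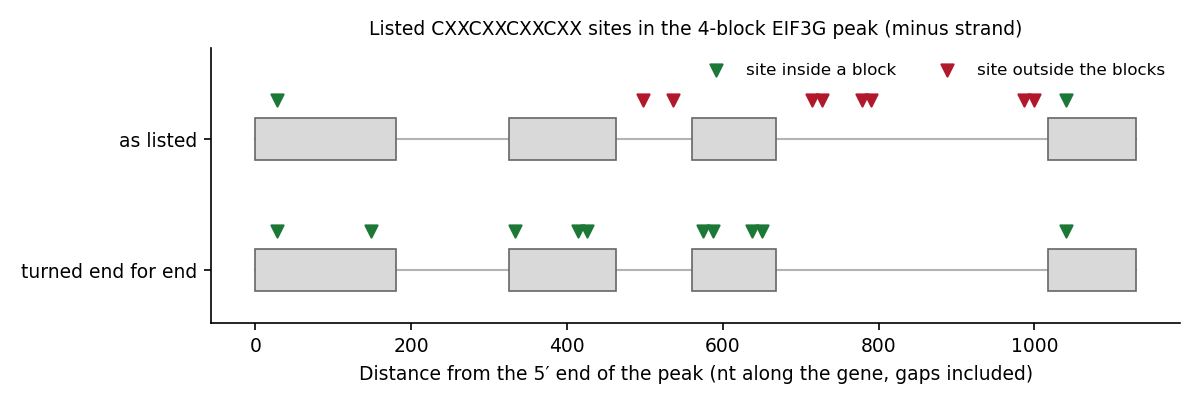
Blocks (grey boxes) of the 4-block EIF3G peak and its 10 listed sites (triangles), in nt along the gene from the 5′ end of the peak, at the listed positions (upper row) and with the layout turned end for end (lower row). As listed, 8 sites (red) lie outside the blocks, and after turning all 10 (green) lie inside.

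By chromosome, the share of junction-spanning peaks was highest on chromosome 19 in shNC, at 222 of 659 peaks (33.7%), and there it was 209 of 673 in shNAT10 (31.1%), below only the 20 of 62 peaks of chromosome 21 (32.3%). It was lowest on chromosome 22 in shNC (15.3% of 177) and on chromosome 15 in shNAT10 (18.4% of 185) among the nuclear chromosomes. Chromosome 22 stood at 22.3% in shNAT10 (17.1 to 28.5), and that interval overlaps the one of shNC (10.7 to 21.3).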

How the data were processed

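Per the labels, RNA was fragmented, ac4C fragments were pulled down with an antibody, and IP and input libraries of shNC and shNAT10 FaDu cells were sequenced. The submitters' processing notes name cutadapt 2.5, HISAT2 2.1.0, HOMER 4.10.4 and featureCounts 1.6.3, and the builds GRCh38, hg38 and GRCm38. The peak caller and its thresholds are not given in the sources used here. The authors deposited a peak list per condition, with blocks, a fold enrichment (the linear ratio of IP to its input), a p-value, and log10 values of p and FDR that reach negative infinity. The authors' deposited table of peaks called different between the conditions was used for region class, symbols, blocks and sites. Its log2 fold changes, p-values and FDR are the authors' own comparison and were not used, so the planned comparison of directions was not made. Block starts were read as counted from 0 and are printed from 1.

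The members, gene lists and comparisons were chosen with earlier results of these data known. Peaks are not replicates, so no p-value was computed. Shares have Wilson and differences Newcombe intervals, pairwise shares DeLong intervals, at 95%. Named genes were those with the 5 highest fold enrichments, 5 largest numbers of blocks, 3 longest total gaps and 3 largest numbers of junction-spanning peaks per list, the 5 shared junctions with the highest lower fold enrichment, genes the study names, and gene list members (all up to 5, otherwise the top 3). The parts of the rule that use the authors' comparison were not applied. Genes without a symbol are left out of the text except 1, and the named sites, pairs and further list members were picked after their values were seen. Gene lists followed symbol patterns. Alternatives were minimum block sizes, stricter peaks, larger overlap, quartiles by p-value, length windows, strongest peaks per gene and other readings of the sites. The overlap, junction and site functions were tested on simulated data. Sequences are from RefSeq (GRCh38.p14). Calculations ran in Python 3.11.15 with scipy 1.17.1, pandas 2.3.3 and numpy 2.4.6, and figures were drawn with matplotlib 3.10.9.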

Additional observations from a re-analysis of the deposited data

How the results depend on the processing

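No paired analysis was possible because no replicate numbers exist, with 1 IP and 1 input for shNC and likewise for shNAT10. With no replicates and no reads, neither the spread between cultures nor depth could be assessed, and the symbols cover only genes with a peak called different. Over 134 alternatives to 52 results, 85 values stayed within their interval, 40 moved and 9 changed sign. A change of sign was counted only where the interval of the main value excluded no difference. The shNAT10 share of pairs ahead by fold enrichment, 49.8% in the main result and 52.7% with the strongest peak of each gene, was therefore not counted. The cause of the changes was not tested.

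The junction-spanning share was 20.1% in shNC and 19.3% in shNAT10 with each block at least 20 nt, 25.8% in shNC with an FDR of at most 0.05, 32.5% and 31.9% with an FDR of at most 1e-10, and 28.1% and 27.5% over genes. The difference in overlap, 12.8 points over all peaks, was 2.23, -2.52, -4.52 and 2.17 points from the first to the last quartile by p-value in shNC and 3.06, -1.64, -0.856 and -3.55 in shNAT10, and 3.68 and 3.64 among peaks of 150 to 300 nt. With the strongest peak of each gene the junction-spanning peak was ahead in 54.4% and 52.7% of pairs by fold enrichment, 66.7% and 65.4% by p-value and 64.2% and 64.1% by length. With blocks of at least 20 nt it was ahead in 65.4% by p-value and 64.1% by length in shNAT10. In peaks of 2 blocks the median gap was 677 nt in shNC and the median smallest block 61 nt in shNC and 58 nt in shNAT10. Counting overlap between junction-spanning peaks in place of the same junction gave 52.7% in shNC and 53.8% in shNAT10. Without peaks classed only as exon the CDS difference was 54.6 points and the 3′-UTR difference -55.6 points. Taken as listed, sites inside blocks gave a difference of 1.04 points and a density ratio of 0.882.

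The remaining alternatives were chosen after seeing the data. Without peaks overlapping another row of their list the junction-spanning share was 23.5% and 22.8%. Among peaks of 150 to 300 nt the CDS difference was 48.8 points and the 3′-UTR difference -55.5 points. On the minus strand, sites as listed gave -11.4 points. The site difference was 5.28 points in peaks up to 180 nt and 5.08 points above 390 nt. Within CDS the site difference was -0.741 points and the density ratio 0.836, and within the 3′-UTR the difference was 20.3 points. In the top quartile by p-value the junction-spanning share was 51.9% and 65.0% for translation factors, and in shNC 68.75% for proteasome subunits and 6.25% for the cytoskeleton, and in shNAT10 47.6% for splicing factors.

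Not run were the direction of the differences the authors called, with its 6 alternatives, and the limit on the FDR of the difference for region class, since both use the authors' comparison, and symbols matched by identifier, since the reference table pairs none of these identifiers.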
